A study of Mus musculus with 6 samples.

Results

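Amino acid transporters of the SLC (solute carrier) families were examined in GL261, a mouse glioma cell line, after exposure to sodium propionate, the sodium salt of a fatty acid that bacteria of the gut release. The genes were taken by name: every gene called Slc3a, Slc6a, Slc7a, Slc36a, Slc38a or Slc43a followed by a number, without Slc7a11. The rule used no expression value and found 53 genes among the 58327 genes in the files. Of these, 22 averaged 1 TPM or more and were tested, where TPM is a relative transcript abundance that takes transcript length into account and has the same total in every library. A further 17 lay below 1 TPM, and 14 were listed at 0 in all 6 libraries.

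RNA was taken 4 h after addition of 1 uM sodium propionate (libraries 1, 4 and 5) or 1 uM sodium chloride (libraries 1, 2 and 3), the control salt with the same cation. The unit of the dose is as the labels give it and could not be checked here. Each library held total RNA of an unmodified culture of the line, as far as the labels say. Whether each library is a culture of its own is not said in the labels. The p-values therefore cover only the scatter among these 6 samples, and that scatter may be technical. The bases counted in a library came to 9.33, 11.3 and 11.1 Gb in propionate 1, 4 and 5, against 9.41, 9.47 and 9.15 Gb in chloride 1, 2 and 3. Propionate 1 and chloride 3 stood apart, with coverage on 71192 and 71452 transcript models, against 81178 to 82370 in the other 4 libraries. The calls of the transporters and several single differences are given with and without them. Other genes named beside the transporters are given with all 6 libraries only.

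The label of the cells was checked against marker genes. Of 8 neural and glioma markers 7 were tested, and the summed level of the 8 was 3818 to 4200 TPM in propionate libraries and 3538 to 3963 TPM in chloride libraries. Most of that sum was Vim, which other cell types also express, at 3010 to 3402 TPM in propionate libraries and 2764 to 3164 TPM in chloride libraries. Nes averaged 348 TPM in propionate and 339 TPM in chloride, Cspg4 163 and 166 TPM, and Cd44 138 and 130 TPM. S100b averaged 101 TPM in propionate and 99.7 TPM in chloride, and Sox2 54.8 and 53.3 TPM. The remaining markers were low. Gfap was at 0.547 to 0.939 TPM in propionate libraries and 0.915 to 1.31 TPM in chloride libraries, and Olig2 at 1.37 to 1.96 TPM in propionate libraries and 1.15 to 1.73 TPM in chloride libraries. Summed myeloid markers were 4.75 to 6.14 TPM in propionate libraries and 4.61 to 6.26 TPM in chloride libraries, with Itgam listed at 0. Most of that sum was Cd68, with means of 3.74 TPM in propionate and 3.90 TPM in chloride, and Csf1r, with 1.68 and 1.44 TPM. Endothelial markers summed to at most 0.293 TPM and neuronal markers to at most 0.0190 TPM in any library, while epithelial markers summed to 2.14 to 3.83 TPM in propionate libraries and 2.13 to 2.39 TPM in chloride libraries.

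Cells take up amino acids through carriers that differ in what they move and what drives them. The Slc7 light chains exchange one amino acid for another and reach the membrane as a pair with a heavy chain of the Slc3 family, while the cationic carriers of Slc7 work alone. Slc38 carriers bring in small neutral amino acids such as glutamine with sodium, or act on lysosomes. Slc6 carriers use sodium, many of them with chloride, and the family moves glycine, taurine, creatine, GABA or monoamines as well as neutral amino acids. Some Slc36 carriers couple amino acids to protons, and Slc43 holds facilitative carriers of large neutral amino acids. In gliomas these proteins are studied for their supply of amino acids to growing cells and to mTORC1, the kinase complex that senses them.

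The promoter windows of 3 genes are shown because they span the range of levels in the set: Slc38a2, the highest, Slc3a2, the heavy chain at place 3, and Slc38a4, a chromosome 15 neighbour of Slc38a2 that was listed at 0 in every library. Each window runs 5′ to 3′ from 250 bases before to 50 bases after a RefSeq start on GRCm38.p6, and capitals mark CG dinucleotides. The windows are chr15:96699679-96699978 (minus strand) for Slc38a2, chr19:8713848-8714147 (minus strand) for Slc3a2 and chr15:97055907-97056206 (minus strand) for Slc38a4, the outermost of its 3 windows.
Slc38a2: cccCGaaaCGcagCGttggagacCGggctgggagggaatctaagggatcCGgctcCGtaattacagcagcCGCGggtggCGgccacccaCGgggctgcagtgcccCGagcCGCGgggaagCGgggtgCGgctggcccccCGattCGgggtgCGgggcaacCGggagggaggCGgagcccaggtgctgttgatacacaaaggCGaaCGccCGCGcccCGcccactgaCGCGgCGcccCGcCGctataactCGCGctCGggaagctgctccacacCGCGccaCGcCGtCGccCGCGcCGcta
Slc3a2: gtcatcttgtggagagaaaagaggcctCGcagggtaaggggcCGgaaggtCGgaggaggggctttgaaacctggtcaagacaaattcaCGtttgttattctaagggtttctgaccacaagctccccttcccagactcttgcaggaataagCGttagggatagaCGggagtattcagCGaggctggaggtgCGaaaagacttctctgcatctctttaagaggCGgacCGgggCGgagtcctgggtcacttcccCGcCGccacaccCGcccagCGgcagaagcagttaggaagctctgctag
Slc38a4: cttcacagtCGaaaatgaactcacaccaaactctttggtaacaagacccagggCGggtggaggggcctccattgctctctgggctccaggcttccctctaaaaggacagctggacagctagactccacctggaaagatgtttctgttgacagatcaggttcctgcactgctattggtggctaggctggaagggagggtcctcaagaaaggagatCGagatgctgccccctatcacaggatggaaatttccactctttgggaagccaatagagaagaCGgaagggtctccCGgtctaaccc
The Slc38a2 window held 41 CG dinucleotides, that of Slc3a2 held 15 and that of Slc38a4 held 5. RefSeq windows matched 36 of the 53 genes. The 15 tested genes among them had a median of 17 CG dinucleotides per window, the 11 genes below 1 TPM had 8 and the 10 genes at 0 had 12.25, against 7 over all 27025 genes of the table. Ranges overlapped widely, from 1 to 41.5 in the tested genes, 3.4 to 32 in those below 1 TPM and 4 to 24 in those at 0, where several windows of a gene were averaged.

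In the propionate comparison the levels of the transporters barely moved apart. None of the 22 tested genes was called higher or lower in propionate at an adjusted p under 0.05 (limma with Benjamini-Hochberg adjustment over 15506 genes), where 0.00645% of all genes tested were called higher and 0.0% lower. At an unadjusted p under 0.05 the count was also 0 in each direction, against 2.16% of all genes tested that were higher, 2.99% that were lower and 5.15% together. Under 5 of the 14 alternatives 1 transporter had an unadjusted p under 0.05, Slc38a6 in 4 of them and Slc38a2 with TPM as deposited. In no tested transporter did the groups fail to overlap, while in 5.28% of all genes propionate lay wholly above chloride and in 6.48% wholly below it. By sign, 8 transporters were higher and 14 lower in propionate, with a median log2 difference of -0.023, against 0.0055 over all genes tested. Single differences lay between -0.36 and 0.28 on the log2(TPM + 1) scale, which understates changes of genes with low values. With chloride 3 and propionate 1 left out, 0 of the 22 passed, and 6 of all genes tested did (limma with Benjamini-Hochberg adjustment). In RNA of a whole culture, fewer cells of a type and less RNA per cell cannot be told apart.

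**Figure D1:**
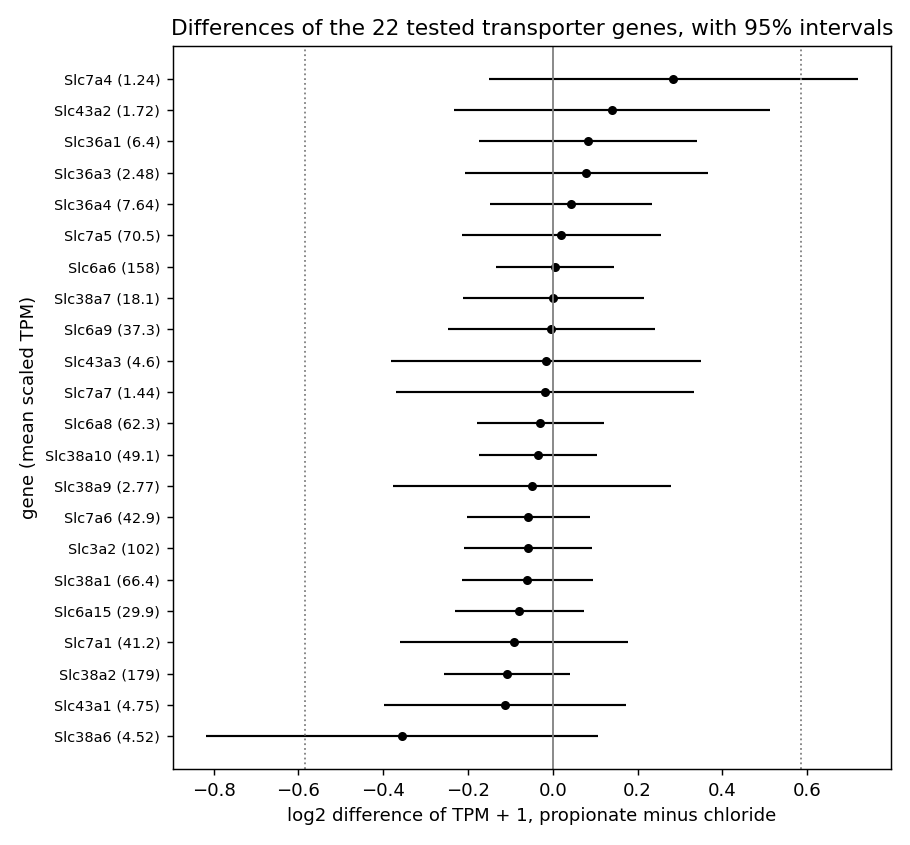
Log2 difference of TPM + 1, propionate minus chloride (x axis), for the 22 tested transporters (y axis, with the mean scaled TPM of each in brackets). Points are estimates, lines are 95% intervals from limma and dotted lines mark a 1.5-fold difference of TPM + 1; every interval crosses 0, and 20 of the 22 stay within 1.5-fold.

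The precision differed with level. The standard error of a log2 difference had a median of 0.10 over the tested transporters and 0.11 over all genes tested. For 20 of the 22 the 95% interval stayed within 1.5-fold of TPM + 1 in either direction, which for genes near 1 TPM is a wider range of TPM itself. The 12 transporters that averaged 10 TPM or more had intervals that ran from 0.779-fold to 1.19-fold of TPM + 1 at the extremes, with log2 differences of -0.11 to 0.02. Reads estimated from coverage numbered 2061 to 47788 per library in those 12 genes, and as few as 102 among all tested transporters.

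The order of the levels was the same at the top in every library. Slc38a2, Slc6a6 and Slc3a2 held places 1, 2 and 3 in all 6 libraries, Slc6a8 place 6, Slc38a10 place 7, Slc6a15 place 11 and Slc38a7 place 12. Slc7a5 and Slc38a1 exchanged places 4 and 5 in chloride 1. Slc7a6 moved between places 8 and 10, while Slc7a1 lay above Slc6a9 in every library. Levels of different genes were not tested against each other. The 6 highest genes made up 71.2% of the summed TPM of the 53. That sum was 932, 839.9 and 877 TPM in propionate 1, 4 and 5, against 919, 883 and 928 TPM in chloride 1, 2 and 3, and the groups overlapped. Slc38 genes held 35.7% of it, Slc6 genes 32.2%, Slc7 genes 17.6%, Slc3 genes 11.4%, Slc36 genes 1.85% and Slc43 genes 1.24%.

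**Figure D2:**
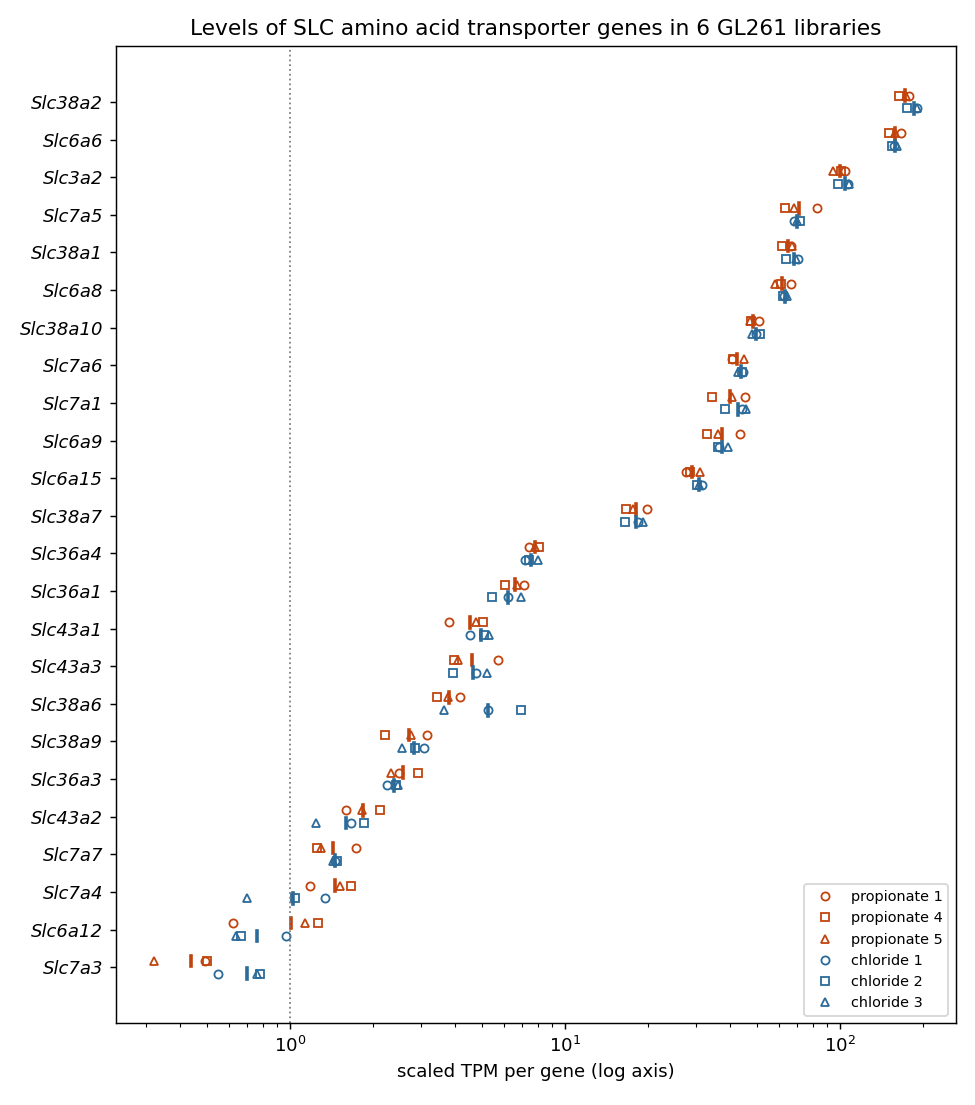
Scaled TPM per gene (x axis, log scale) of the 24 transporters with a mean of at least 0.5 TPM (y axis, ordered by mean). Open symbols are libraries, short bars are group means with propionate above chloride in each row, and the dotted line marks 1 TPM; the ranges of the groups overlap for all 22 tested genes.

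Heavy chains of the Slc3 family bring the Slc7 light chains to the plasma membrane. Slc3a2 (CD98 heavy chain, chr19:8706882-8723369, minus strand) had 104, 101 and 94.8 TPM in propionate 1, 4 and 5, against 107, 98.2 and 108 TPM in chloride 1, 2 and 3. The groups overlapped, with propionate 5 lowest, and the log2 difference was -0.058 (95% interval -0.21 to 0.093). Slc3a1, the heavy chain of the cystine carrier of kidney and gut, stayed between 0.0631 and 0.179 TPM in propionate libraries and between 0.0705 and 0.175 TPM in chloride libraries.

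Slc7a5 (LAT1, chr8:121881150-121907694, minus strand), the Slc3a2 partner that carries large neutral amino acids such as leucine, had 82.5, 63.1 and 68.1 TPM in propionate 1, 4 and 5, against 68.0, 71.7 and 69.8 TPM in chloride 1, 2 and 3. Propionate 1 was the highest and propionate 4 the lowest of the 6, so the chloride libraries lay inside the propionate range. Its means were 71.2 ± 10.1 TPM in propionate and 69.8 ± 1.87 TPM in chloride (SD, n = 3 each), a log2 difference of 0.020 with a 95% interval of -0.22 to 0.25. Slc7a6 (y+LAT2, chr8:106168857-106198799, plus strand), which exchanges cationic for neutral amino acids, had 40.4, 40.9 and 44.9 TPM in propionate, against 44.5, 44.1 and 42.8 TPM in chloride. Propionate 5 was the highest of the 6 and the groups overlapped, with a log2 difference of -0.057 (95% interval -0.20 to 0.089). Slc7a7 (y+LAT1), a relative with the same exchange, stayed between 1.26 and 1.74 TPM in propionate libraries and between 1.43 and 1.48 TPM in chloride libraries. Its exons overlap Oxa1l on the opposite strand. Of the other Slc3a2 partners in the set, Slc7a8 was at 0.00960 TPM in propionate 5 and listed at 0 elsewhere, and Slc7a10 was listed at 0 throughout.

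Slc7a5, Slc7a6, Slc7a7, Slc7a8 and Slc7a10, the light chains of Slc3a2 in the set, which leaves out Slc7a11, together had 1.197, 1.04 and 1.21 times the TPM of Slc3a2 in propionate 1, 4 and 5, against 1.07, 1.19 and 1.06 times in chloride 1, 2 and 3. Slc7a5 alone had 0.792, 0.623 and 0.718 times the TPM of Slc3a2 in propionate and 0.638, 0.730 and 0.647 times in chloride. Both ratios overlapped between the groups and were given no test. The ratios are of transcripts, and say nothing of how the proteins pair.

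Among the cationic carriers, Slc7a1 (CAT1, chr5:148327410-148399904, minus strand), a sodium-independent carrier of arginine and lysine, had 45.2, 34.3 and 40.5 TPM in propionate 1, 4 and 5, against 43.9, 38.1 and 45.6 TPM in chloride 1, 2 and 3. Propionate 4 was the lowest, and the log2 difference was -0.092 (95% interval -0.36 to 0.18). Slc7a3 (CAT3) lay below the filter, with 0.491, 0.4995 and 0.321 TPM in propionate and 0.549, 0.781 and 0.759 TPM in chloride. Slc7a2 (CAT2) was listed at 0 in all libraries except propionate 5, at 0.00204 TPM.
Slc7a4, a relative of these carriers with no agreed transport activity, had the lowest mean of the tested genes, with 1.19, 1.66 and 1.53 TPM in propionate against 1.34, 1.04 and 0.701 TPM in chloride. Propionate 1 fell inside the chloride range, and the log2 difference of 0.28 (SE 0.18, 95% interval -0.15 to 0.72) had an adjusted p of 0.912 (limma with Benjamini-Hochberg adjustment). The difference was 0.16 without chloride 3, and 0.49 with a pseudocount of 0.1. Its exons overlap P2rx6 on the opposite strand, and exons of Slc6a6, Slc6a9, Slc38a9, Slc38a10 and Slc43a2 also overlap genes on the opposite strand. The use of strand in quantification is not stated, so reads of such overlapping pairs may not be told apart.

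Slc38a2 (SNAT2, chr15:96687392-96699730, minus strand), the sodium-coupled carrier of small neutral amino acids whose transcription is known to be raised by amino acid starvation, was the most abundant transporter. It had 178, 163 and 174 TPM in propionate 1, 4 and 5, against 189.9, 175 and 191 TPM in chloride 1, 2 and 3. Propionate 1 lay above chloride 2, so the groups overlapped, with means of 172 ± 7.66 TPM in propionate and 185 ± 8.98 TPM in chloride. The log2 difference was -0.11 (SE 0.063, 95% interval -0.26 to 0.041), with an adjusted p of 0.912 (limma with Benjamini-Hochberg adjustment). Of all genes tested, 95.5% had a lower mean.

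Slc38a1 (SNAT1, chr15:96571418-96642913, minus strand), a close relative that carries glutamine, lies beside Slc38a2 and had 66.5, 61.4 and 67.1 TPM in propionate 1, 4 and 5, against 70.5, 63.8 and 69.2 TPM in chloride 1, 2 and 3. Its groups overlapped and the log2 difference was -0.060 (95% interval -0.21 to 0.094). Slc38a4 (SNAT4), on the same chromosome and strand beyond Slc38a2, was listed at 0 in all 6 libraries. Slc38a7 (chr8:95835920-95853539, minus strand), known in human cells for moving glutamine and asparagine out of lysosomes, had 19.95, 16.6 and 17.7 TPM in propionate, against 18.4, 16.6 and 19.2 TPM in chloride. Propionate 1 was its highest library, and the log2 difference was 0.0012 (95% interval -0.21 to 0.22). Slc38a9, a lysosomal carrier that signals arginine to mTORC1, had 3.16, 2.22 and 2.76 TPM in propionate, against 3.08, 2.86 and 2.55 TPM in chloride, which overlapped.

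Slc38a6, a little-studied member of the family (chr12:73286779-73354248, plus strand), had the smallest p of the tested transporters. It had 4.16, 3.42 and 3.77 TPM in propionate 1, 4 and 5, against 5.24, 6.92 and 3.62 TPM in chloride 1, 2 and 3. Chloride 3 lay inside the propionate range and the other chloride libraries lay above it. The log2 difference was -0.36 (SE 0.20, 95% interval -0.82 to 0.11), with an adjusted p of 0.912 (limma with Benjamini-Hochberg adjustment). With chloride 3 and propionate 1 left out the log2 difference was -0.61 and the adjusted p 0.825, so it did not pass with or without that pair. Without chloride 3 alone it was -0.56. The other Slc38 genes were low: Slc38a3 reached 0.341 TPM in propionate 1 and was otherwise at most 0.0876 TPM, Slc38a8 was detected in propionate 4 alone, and Slc38a5 and Slc38a11 were listed at 0 in all libraries.

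Slc6a6 (chr6:91684053-91759066, plus strand), the taurine carrier, had 167, 150.3 and 159 TPM in propionate 1, 4 and 5, against 158, 155 and 161 TPM in chloride 1, 2 and 3. The chloride libraries lay within the propionate range and the means were 159 ± 8.43 TPM in propionate and 158 ± 3.11 TPM in chloride, with a log2 difference of 0.0049 (95% interval -0.13 to 0.14). Slc6a8 (chrX:73673150-73682502, plus strand), the creatine carrier, had 66.2, 60.8 and 58.2 TPM in propionate, against 62.7, 62.0 and 64.1 TPM in chloride. Again chloride lay within the propionate range, with a log2 difference of -0.029 (95% interval -0.18 to 0.12).

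Slc6a9 (GlyT1, chr4:117834506-117875198, plus strand), a glycine carrier of glia, had 43.2, 32.8 and 36.1 TPM in propionate 1, 4 and 5, against 36.4, 36.1 and 39.3 TPM in chloride 1, 2 and 3. Propionate 1 was the highest and propionate 4 the lowest, and the log2 difference was -0.0034 (95% interval -0.25 to 0.24). Slc6a15 (chr10:103367783-103419558, plus strand), a carrier of branched-chain amino acids and proline found in brain, had 27.6, 28.6 and 31.0 TPM in propionate, against 31.4, 30.1 and 30.7 TPM in chloride. Propionate 1 and 4 lay below all chloride libraries and propionate 5 between them, with a log2 difference of -0.079 (95% interval -0.23 to 0.073). Slc6a12, a betaine and GABA carrier, fell below the filter with 0.621, 1.27 and 1.13 TPM in propionate and 0.971, 0.666 and 0.636 TPM in chloride.

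Apart from Slc6a9, the Slc6 carriers of neurotransmitters were low or at 0. Slc6a11, a GABA carrier, Slc6a5, a neuronal glycine carrier, Slc6a4, the serotonin carrier, and Slc6a2, the noradrenaline carrier, were each above 0 in 1 library. Slc6a3, the dopamine carrier, and Slc6a7, a proline carrier of neurons, were listed at 0 in all 6 libraries, as were Slc6a14, Slc6a16, Slc6a17 and Slc6a18. Slc6a13, Slc6a19 and Slc6a21 reached at most 0.131, 0.0541 and 0.102 TPM in any library.
In the Slc7 family, Slc7a14 reached at most 0.0495 TPM, and Slc7a9, Slc7a12, Slc7a13 and Slc7a15 were listed at 0 in all libraries. A gene listed at 0 may be low, or its estimate may have failed.

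Some of the Slc36 genes carry small amino acids with protons. Slc36a1 (PAT1), found on lysosomes, had 7.11, 6.04 and 6.67 TPM in propionate 1, 4 and 5, against 6.19, 5.45 and 6.94 TPM in chloride 1, 2 and 3. Slc36a4 had 7.43, 8.07 and 7.80 TPM in propionate, against 7.15, 7.39 and 8.01 TPM in chloride. Slc36a3 had 2.49, 2.92 and 2.34 TPM in propionate, against 2.26, 2.42 and 2.47 TPM in chloride. All overlapped between groups, and the log2 differences of Slc36a1, Slc36a4 and Slc36a3 were 0.084, 0.043 and 0.079. On reads estimated from coverage, voom gave 0.66 for Slc36a1 (adjusted p 0.896, limma with Benjamini-Hochberg adjustment), where chloride 3 had 432 estimated reads and the other 5 libraries had 1263 to 1759. Slc36a1 and Slc36a3 lie close together on chromosome 11 with Slc36a2 between them, and Slc36a2 reached at most 0.126 TPM in any library.

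The Slc43 genes had the smallest family sum, at 10.98 ± 0.265 TPM in propionate and 11.2 ± 0.488 TPM in chloride. Slc43a1 (LAT3), a carrier of large neutral amino acids, had 3.80, 5.05 and 4.76 TPM in propionate, against 4.52, 5.09 and 5.31 TPM in chloride, and its neighbour on chromosome 2, Slc43a3, known for nucleobases rather than amino acids, had 5.73, 3.95 and 4.08 TPM in propionate, against 4.73, 3.93 and 5.20 TPM in chloride. Slc43a2 (LAT4), with the second smallest p among the transporters higher by sign, had 1.61, 2.13 and 1.83 TPM in propionate, against 1.68, 1.86 and 1.245 TPM in chloride. All of these overlapped, with log2 differences of -0.11, -0.016 and 0.14 for Slc43a1, Slc43a3 and Slc43a2. For Slc43a2 the adjusted p was 0.937 (limma with Benjamini-Hochberg adjustment). The Slc43a2 difference was 0.040 without chloride 3, and 0.10 with chloride 3 and propionate 1 left out.

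The gene levels are sums over transcript models, which were of 2 kinds: annotated reference transcripts, and models assembled from reads of the study. Of the 22 tested transporters, 11 had at least 1 assembled model, and in 9 of these the sum varied less over the 6 libraries than the reference models alone. In Slc6a9 the sum varied more. The assembled model of Slc38a9 was listed at 0 in all 6 libraries, so its sum and reference models were the same. For Slc6a6 the reference models alone gave 128, 107 and 57.1 TPM in propionate 1, 4 and 5, against 97.8, 65.8 and 124 TPM in chloride 1, 2 and 3, a coefficient of variation of 30.5%, against 3.59% for the sum. Assembled models held 39.0% of Slc6a6, 53.2% of Slc38a10, 46.0% of Slc7a6 and 50.2% of Slc6a15. For Slc38a2, Slc38a10, Slc7a6 and Slc6a15 the reference models varied by 15.3%, 24.8%, 24.4% and 36.03%, and the sums by 5.87%, 3.66%, 4.40% and 4.99%.

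**Figure D3:**
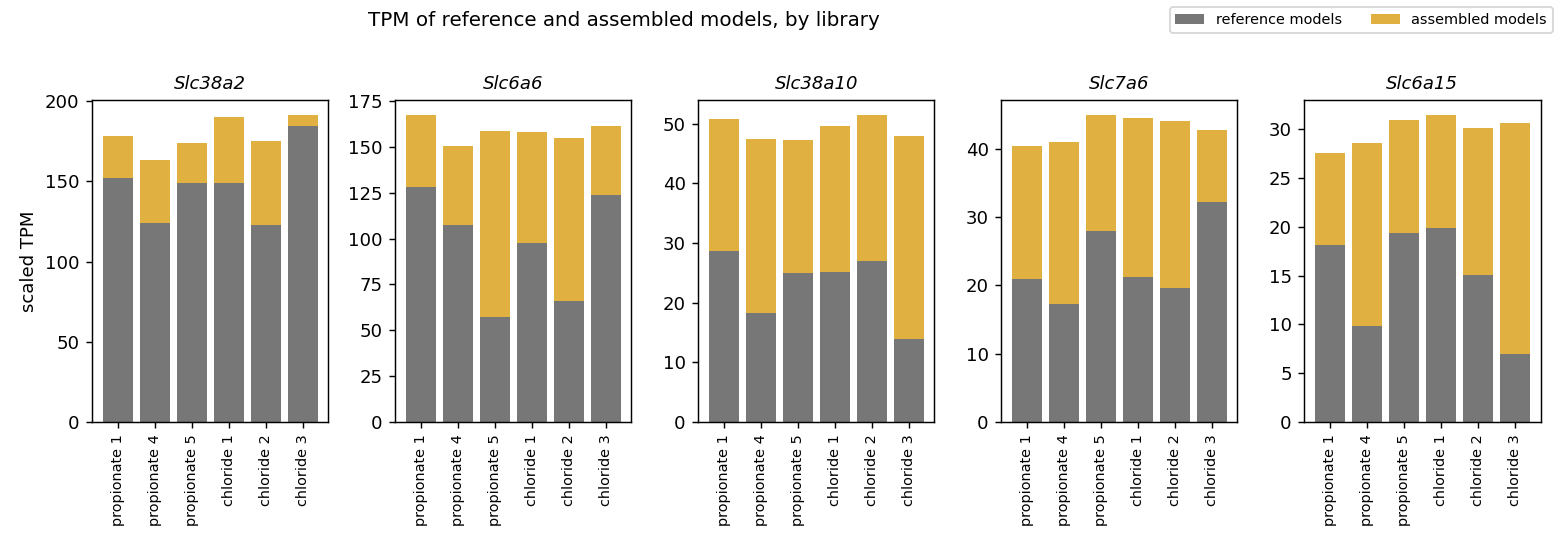
Scaled TPM (y axis, from 0) of 5 transporters in each library (x axis, propionate left of chloride), with reference models in grey and assembled models stacked on them in yellow. The split between the colours moves from library to library while the height of the whole bar stays nearly level, as for Slc6a6, whose reference part runs from 57.1 to 128 TPM.

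Annotated models of a gene could also trade places. In Slc36a1, model ENSMUST00000108872 had 6.36, 4.62 and 6.42 TPM in propionate 1, 4 and 5, against 5.85, 5.36 and 0 TPM in chloride 1, 2 and 3. Model ENSMUST00000108867 had 0.696, 0.0702 and 0.220 TPM in propionate, against 0.125, 0.00887 and 5.57 TPM in chloride. Chloride 3 was the one library in which the level stood on the other model. Model ENSMUST00000108872 has 5264 nt and ENSMUST00000108867 has 1636 nt.

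At the level of single models, 68 models of the transporters were tested among 35755 transcripts and none was called, where 0.0364% of all transcripts tested were called (limma with Benjamini-Hochberg adjustment over transcripts). At an unadjusted p under 0.05 there were 8, with 4.58% of all transcripts tested at that level. Of these 8, 7 belonged to Slc38a10, which had 10 models tested, and the other was Slc38a2 model ENSMUST00000229141. That model had 8.59, 7.86 and 8.64 TPM in propionate, against 10.2, 10.9 and 10.9 TPM in chloride, without overlap, a log2 difference of -0.31 (adjusted p 0.862, limma with Benjamini-Hochberg adjustment). Also without overlap, single models of Slc38a1, Slc6a8 and Slc38a7 were lower in propionate and 1 of Slc6a6 was higher. The share of all transcripts without overlap was not counted. Among genes, propionate lay wholly above chloride in 5.28% and wholly below it in 6.48%.

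Slc38a10 (chr11:120103960-120151346, minus strand), a little-studied Slc38 carrier, had a gene sum of 50.8, 47.4 and 47.2 TPM in propionate 1, 4 and 5, against 49.6, 51.4 and 48.0 TPM in chloride 1, 2 and 3. The groups overlapped and the log2 difference was -0.034 (95% interval -0.17 to 0.11). Some of its models differed in level between the libraries by where they end. Of the models with at least 13 exons, 3 assembled ones end 230 to 237 bases beyond the 3′ end called shortest here. Another 3 assembled ones end 67 to 69 bases beyond it, and 4, of which 2 are annotated, have that end. A further annotated model ends inside it, had at most 0.113 TPM in any library and was put in none of these classes.
The longest class summed to 11.7, 18.6 and 16.0 TPM in propionate 1, 4 and 5, against 1.48, 0.878 and 8.85 TPM in chloride 1, 2 and 3. The middle class summed to 3.31, 1.49 and 1.89 TPM in propionate, against 14.5, 14.004 and 18.6 TPM in chloride. In both classes the groups did not overlap, with propionate above chloride in the longest and below it in the middle. How often models of other genes separate in this way was not counted, so the pattern cannot be called unusual. The shortest class overlapped, with 34.8, 25.7 and 27.6 TPM in propionate against 30.8, 34.0 and 18.1 TPM in chloride, and chloride 3 was the lowest library there. Within it the annotated model ENSMUST00000103018 had 4.79, 5.49 and 5.47 TPM in propionate, against 7.14, 9.26 and 6.52 TPM in chloride, without overlap, and a log2 difference of -0.46 (adjusted p 0.862, limma with Benjamini-Hochberg adjustment).

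Shares were taken of the summed models with at least 13 exons, not of the whole gene. The longest class made up 23.4%, 40.6% and 35.3% in propionate 1, 4 and 5, against 3.18%, 1.79% and 19.4% in chloride 1, 2 and 3. The middle class made up 6.63%, 3.26% and 4.15% in propionate, against 30.9%, 28.6% and 40.7% in chloride. The classes were drawn up after the values were seen, and are given without a test. The models share most of their exons, so the quantifier divides the same reads between them.
Among single models, that with 17 exons and 4644 nt in the middle class had a log2 difference of -1.88 (SE 0.18, adjusted p 0.109), and that with 16 exons and 4617 nt had -2.00 (SE 0.20, adjusted p 0.133), by limma with Benjamini-Hochberg adjustment. The other model of that class had -1.58 (adjusted p 0.862, limma with Benjamini-Hochberg adjustment). Both of the models with an adjusted p near 0.1 were lower in propionate in all alternatives run, and their adjusted p ranged over those from 0.106 to 0.310 and from 0.103 to 0.347. The models in the longest class had log2 differences of 1.17 to 2.08, each with an adjusted p of 0.862 (limma with Benjamini-Hochberg adjustment). With chloride 3 and propionate 1 left out they were 1.57 to 3.01, with adjusted p of 0.150 to 0.554, and without chloride 3 alone 1.59 to 2.80, with adjusted p of 0.157 to 0.789 (limma with Benjamini-Hochberg adjustment). At the other end of the gene, the antisense gene Gm11769 overlaps it and had 0.0253, 0.185 and 0.0641 TPM in propionate, against 0.0606, 0.297 and 0.187 TPM in chloride.

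**Figure D4:**
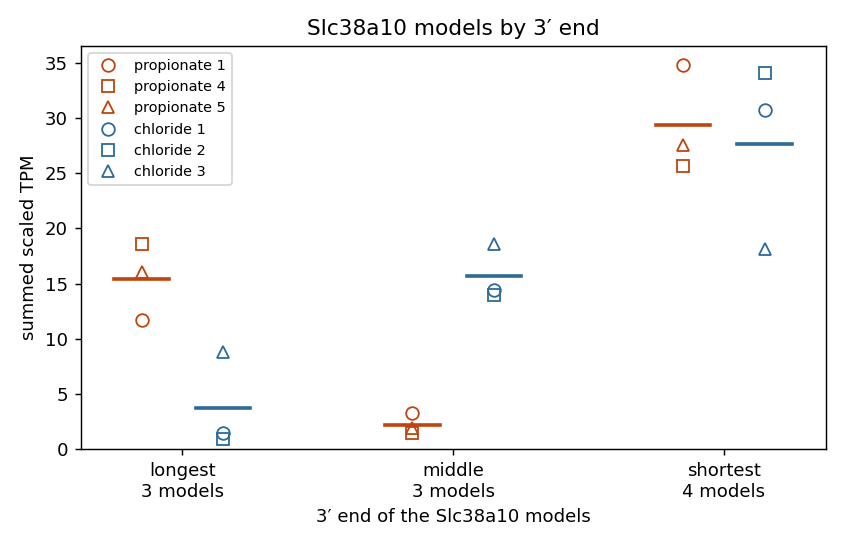
Summed scaled TPM (y axis, from 0) of the Slc38a10 models in 3 classes by 3′ end (x axis). Open symbols are libraries and bars are group means, propionate left of chloride; the longest class has all 3 propionate libraries above chloride, the middle class has them all below, and the shortest class overlaps.

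Other genes of amino acid supply and sensing were looked at beside the transporters, from lists chosen with earlier results known. Of 17 further amino acid carriers 5 were tested, with none called, 1 higher and 4 lower by sign and a median log2 difference of -0.070. The 2 with the smallest p were Slc1a5 (ASCT2), a glutamine exchanger, with 45.6, 43.5 and 44.1 TPM in propionate 1, 4 and 5 against 45.7, 47.5 and 52.6 TPM in chloride 1, 2 and 3, and Slc1a4 (ASCT1), with 36.9, 33.8 and 31.5 TPM in propionate against 33.9, 36.9 and 39.0 TPM in chloride. For Slc1a5 every propionate library lay below every chloride library, by as little as 45.6 against 45.7 TPM, with a log2 difference of -0.13 and an adjusted p of 0.912, and for Slc1a4 the groups overlapped (limma with Benjamini-Hochberg adjustment).

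All 30 genes found of a list of mTORC1 and the amino acid sensing around it were tested, with none called. By sign 13 were higher and 17 lower, with a median of -0.018. The smallest p there belonged to Lamtor4, a subunit of the complex that holds mTORC1 on lysosomes, at 38.8 ± 2.43 TPM in propionate and 29.3 ± 5.14 TPM in chloride (log2 difference 0.41, SE 0.13, adjusted p 0.912, limma with Benjamini-Hochberg adjustment). Its groups did not overlap. Next by p was Tfeb, a transcription factor of lysosomal genes, at 4.09 ± 0.892 TPM in propionate and 3.05 ± 0.521 TPM in chloride. Of 20 genes around the kinase GCN2 and the transcription factor ATF4, which act when amino acids run short, 19 were tested, with none called, 8 higher and 11 lower by sign and a median of -0.015. Chac1, an ATF4 target, had 7.45 ± 0.705 TPM in propionate and 9.02 ± 0.456 TPM in chloride, a log2 difference of -0.25 with an adjusted p of 0.912 (limma with Benjamini-Hochberg adjustment). Every propionate library of Chac1 lay below every chloride library, by 8.22 against 8.62 TPM at the nearest. Trib3, another ATF4 target and next by p, had 9.36 ± 0.807 TPM in propionate and 10.5 ± 0.860 TPM in chloride. Outside the naming rule, Asns, an ATF4 target that makes asparagine, had 237, 251 and 235 TPM in propionate 1, 4 and 5, against 228, 230.3 and 229 TPM in chloride 1, 2 and 3, a log2 difference of 0.070 without overlap (adjusted p 0.923, limma with Benjamini-Hochberg adjustment). Atf4 itself scattered within both groups, with 62.3, 160.1 and 15.4 TPM in propionate against 132, 81.3 and 157 TPM in chloride. Asns and Atf4 were chosen after their values were seen.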

How the data were processed

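Libraries of total RNA were made, per the labels' protocols, with the TruSeq Stranded Total RNA kit. Tools named in the submitters' processing notes are bcl2fastq, fastp, HISAT2 and StringTie, with the mm10 build. Per the file headers, the authors ran StringTie 2.1.1 on each library with a common set of models, without pooling, and deposited coverage, FPKM and TPM per transcript, with no counts. Their strand setting is not given in the sources used.

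Assembled models were joined to the GENCODE M21 gene of the same strand with most shared exon bases. TPM were summed per gene and each library was divided by a median-ratio factor against the geometric mean over libraries (0.971, 0.966 and 0.967 for propionate 1, 4 and 5, against 1.09, 0.990 and 1.03 for chloride 1, 2 and 3). All TPM given are scaled. Genes averaging 1 TPM or more whose longest transcript reached 200 nt, 15506 in number, were tested two-sided on log2(scaled TPM + 1) with limma 3.58.1 (R 4.3.3; lmFit and trended eBayes), and p-values were adjusted by Benjamini-Hochberg over the whole table. The test was also run on simulated data, with independent scatter for each gene and changes planted only in genes above about 10 TPM. That run did not cover low genes or transcript models, and no result here rests on it. Tables were handled in Python 3.11.15 (pandas 2.3.3, numpy 2.4.6) and figures drawn with matplotlib 3.10.9.

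The members and lists were chosen with earlier results of these data known. Values in every library were given for members with a mean of at least 10 TPM, any member past the threshold, the 2 with the smallest p in each direction, Slc7a5 and Slc3a2, and up to 10 more for their role; further members were named to account for the set, of which 1 is not reported here. Promoter windows are from RefSeq. Protein sequences were not used here.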

Additional observations from a re-analysis of the deposited data

How the results depend on the processing

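No transporter was past the threshold under any of the 14 alternatives, which covered scaling, pseudocount, filter, models summed, estimated reads, the libraries that stood apart and each library in turn; over all genes these called 0 to 6. The median log2 difference of -0.023 was -0.11 with TPM as deposited, where the median of all genes was -0.083, and lay between -0.073 and 0.015 with each library left out in turn, the lowest without propionate 1.

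Of 299 differences of single transporters under alternatives, 33 changed sign and the lowest adjusted p was 0.593 (limma with Benjamini-Hochberg adjustment). Part of the 299 could not change sign. The fit with a term for chloride 3 and propionate 1 gave the same log2 differences as the main fit. So did the fits with no filter and with a mean of at least 5 TPM. With reference transcripts alone, genes without an assembled model kept theirs. With TPM as deposited Slc36a1 was -0.00077, Slc36a4 -0.043, Slc38a7 -0.091, Slc6a6 -0.092 and Slc7a5 -0.076. With reference transcripts alone Slc36a4 was -0.15, Slc38a10 0.15, Slc6a15 0.22, Slc6a6 -0.0055 and Slc6a9 0.057. Without chloride 3 and propionate 1 Slc38a7 was -0.024, Slc43a1 0.027, Slc6a6 -0.019 and Slc7a5 -0.090. With voom on estimated reads Slc38a10 was 0.00073, Slc43a2 -0.085 and Slc36a1 0.66, with no change of sign for Slc36a1. With each library left out in turn, the range was -0.067 to 0.057 for Slc38a7, -0.033 to 0.043 for Slc6a6, -0.090 to 0.10 for Slc7a5, -0.14 to 0.050 for Slc38a9, -0.16 to 0.064 for Slc43a3, -0.11 to 0.084 for Slc6a9, -0.18 to 0.012 for Slc7a1, -0.11 to 0.033 for Slc7a7 and -0.079 to 0.012 for Slc6a8. The cause was not tested. Slc38a6 ranged from -0.61 to -0.17. Its unadjusted p by limma was 0.00761 without chloride 3 and propionate 1, 0.00837 without chloride 3, 0.0333 with voom and 0.0409 with reference transcripts alone. In these fits its adjusted p was 0.825 or more, and the lowest over all settings was 0.608 (limma with Benjamini-Hochberg adjustment). Slc38a2 with TPM as deposited was -0.20 with an unadjusted p of 0.0467 and an adjusted p of 0.657 by limma. Slc7a4 ranged from 0.16 to 0.49.

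No paired analysis was possible because the groups share only 1 replicate number. The alternatives for the Slc38a10 models were chosen after seeing the data. Genes near 1 TPM rest on few reads, and the number of libraries limits all calls.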

Other observations

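The amino acid response element, through which ATF4 acts on its targets, has the core TGATGNAA. It was searched on both strands of the RefSeq windows of 300 bases and was found in 3 of 57 windows of the transporters, in Slc7a7 and Slc6a21, and in 3.97% of the 32851 windows of the table. Of the 15 tested transporters with a window it was in 1. The windows of Slc38a2 and Slc3a2 held no match, which says only that these letters are not in them.

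The ratio of Slc38a1 to Slc38a2, neighbouring carriers of glutamine and other small neutral amino acids, was 0.373, 0.376 and 0.386 in propionate 1, 4 and 5, against 0.371, 0.365 and 0.362 in chloride 1, 2 and 3. All propionate libraries lay above all chloride libraries, by 0.373 against 0.371 at the nearest. The pair was chosen after the levels were seen, and the ratio was given no test.

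In the summed level of Slc36 genes, propionate libraries had 17.04, 17.07 and 16.92 TPM, against 15.6, 15.4 and 17.4 TPM in chloride libraries, and chloride 3 lay above all propionate libraries. The Slc36a1 part of chloride 3 rested on 432 estimated reads, against 1263 to 1759 in the other libraries. In chloride 3 the Slc36a1 level stood on model ENSMUST00000108867 of 1636 nt, not on ENSMUST00000108872 of 5264 nt. A shorter model needs fewer reads for the same TPM. The median of the log2 deviations of the tested transporters from their 6-library mean was 0.040, -0.070 and -0.023 in propionate 1, 4 and 5, against 0.023, -0.025 and 0.039 in chloride 1, 2 and 3.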
